A study of Homo sapiens with 6 samples.

Results

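The heat shock and chaperone genes described here were the rows of the deposited transcriptome table whose symbols belong to the HSP70, HSP90, HSP110, small heat shock protein, J-domain (DNAJ), BAG, chaperonin (CCT), prefoldin, FKBP, cyclophilin (PPI), protein disulfide isomerase (PDIA) and prolyl 4-hydroxylase (P4H) families, or are STIP1, AHSA1 or a heat shock factor. Of the 4101 genes of the table, 26 carried such a symbol. The endoplasmic reticulum genes HSPA5, HSP90B1, DNAJC3 and PDIA4, the antisense gene DNAJC3-AS1 and the pseudogene CCT6P3 were left out, which left 20 genes. They comprised 10 J-domain genes, 3 genes of the HSP70 and HSP110 families, 3 FKBP genes, 2 cyclophilins, 1 small heat shock protein and the transcription factor HSF1. No cytosolic HSP90, BAG, CCT or TCP1, prefoldin, STIP1, AHSA1, PDIA or P4H gene was among the 20, and such genes were not analysed here where the table lacks them. By background knowledge, the products of 12 of the 20 act mainly in the cytosol. HSPA9, DNAJC30 and PPIF act in mitochondria, DNAJC1, DNAJC18 and PPIC in the endoplasmic reticulum, and HSF1 and FKBP3 in the nucleus as well as the cytosol, so the genes reach beyond the cytosolic chaperones.

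RNA was sequenced from SH-SY5Y, a human neuroblastoma line used as a dopaminergic cell model and labelled wild type. Cultures received 2 mM methamphetamine (METH), a psychostimulant, for 24 h in the METH-treatment group (n = 3), or PBS in the PBS-treatment group (n = 3). All cultures grew in the same serum-containing medium, SH-SY5Y is itself a subclone of a tumour line, and no other line or dose was included. The PBS columns bear the numbers 10 to 12, kept here as library names, and cannot be matched one by one to the sample labels.

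Chaperones bind unfolded or partly folded proteins and keep them from aggregating. HSP70 proteins do so in cycles of ATP hydrolysis that J-domain proteins start and HSP110 proteins help to reset, while FKBP and cyclophilin proteins are peptidyl-prolyl isomerases, some of which work as partners of HSP90. In cells with many unfolded proteins HSF1 forms trimers, binds heat shock elements in promoters and raises transcription of genes such as HSPA1A and DNAJB1.

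Heat shock elements are built of inverted GAA units, and the sequences that carry them are shown because HSF1, HSPA1A and DNAJB1 are described together below. RefSeq promoter windows of 300 bases (250 before to 50 after a transcription start, GRCh38.p14) were found for 17 of the 20 genes, the others being HSF1, DNAJC1 and DNAJC24. Each window was searched for GAANNTTC and TTCNNGAA, which read the same on both strands and can overlap each other. Of the 17 genes, 4 held one in at least 1 window. Counted by windows, 5 of 21 (23.8%) held one, against 13.5% of all 35116 windows. The longer run of 3 units, GAANNTTCNNGAA or its reverse complement TTCNNGAANNTTC, was in 0 of the 21 and in 0.490% of all windows. The matches are printed below in the direction of transcription, 30 bases each, with the 8 bases of the match in capitals.
HSPA1A, chr6:31815426-31815455, plus strand, match beginning 106 bases before the start: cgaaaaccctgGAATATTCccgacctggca
DNAJB1, chr19:14518456-14518485, minus strand, match beginning 77 bases before the start: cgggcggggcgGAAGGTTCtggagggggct
DNAJB1, chr19:14518426-14518455, minus strand, match beginning 47 bases before the same start: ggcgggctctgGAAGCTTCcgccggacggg
DNAJB1, chr19:14517918-14517947, minus strand, match beginning 1 base after another start: ccgctcggccaGAAGCTTCtagcatgtctg
DNAJB4, chr1:78004830-78004859, plus strand, match beginning 98 bases before the start: agcatttgctgTTCTAGAAagtacagagac
HSPA9, chr5:138575387-138575416, minus strand, match beginning 4 bases before the start: tggttggaggtTTCCAGAAgcgctgccgcc
DNAJB1 has 3 starts in this annotation and DNAJB4 has 2, and 1 window of each held no match. A match is a string of letters and was not shown to be bound in these cells.

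Levels are given as CPM, reads of a gene scaled to the total of its library, since the values carry no correction for gene length although their columns are headed FPKM. Recovered library totals were 86.8 to 110.77 M reads with PBS and 85.7 to 107 M reads with METH, and every one of the 20 genes had at least 105 reads in each library. How much of the spread between libraries is counting error was not tested. The 15 mitochondrially encoded genes of the table summed to 61593 to 112982 CPM with PBS, highest in PBS 10, and to 41573 to 54448 CPM with METH. CHGB, a secretory granule protein of sympathoadrenal cells and a marker of this cell type, was at 220.0 to 266 CPM with PBS and 409 to 505 CPM with METH. Of 5 fibroblast markers, LUM and DCN were in the table, at 19.1 to 25.3 CPM in sum with PBS and 39.9 to 46.0 CPM with METH, and of 3 glial markers, 0 were in the table. The part of these differences in the results below was not tested. All genes of the table have an authors' p-value under 0.1, so a marker missing from it may still be expressed. In bulk RNA, a change in the number of cells of one kind cannot be told apart from a change in RNA per cell.

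The comparison of METH with PBS used limma on log2(CPM + 0.1). P-values were adjusted by the Benjamini-Hochberg method over all 4101 genes, and an adjusted p-value under 0.1 counted as past the threshold. SE denotes the standard error of the log2 fold change (METH minus PBS). With METH, 10 of the 20 genes were higher past the threshold (HSPB7, FKBP1B, PPIC, DNAJC1, DNAJC18, DNAJB5, DNAJB2, DNAJC12, DNAJB4 and DNAJA2) and 4 were lower (FKBP5, DNAJC30, PPIF and HSPH1). HSPA1A, DNAJB1, HSF1, DNAJC24, FKBP3 and HSPA9 did not pass. The 14 genes that passed were 70.0% of the 20, against 69.1% of all genes of the table, 33.3% higher and 35.8% lower. The share is thus near the background, and the table holds only genes that the authors' own comparison of the same libraries had selected. The median log2 fold change was 0.60 over the 20 genes and 0.11 over the table. Groups did not overlap in 10 of the 20 genes, against 64.0% of the table. At an adjusted p-value under 0.05, 3 of the 20 genes were higher (HSPB7, FKBP1B and PPIC) and 2 lower (FKBP5 and PPIF), against 36.1% of the table (17.0% higher, 19.1% lower). Adjusted as if 20000 genes had been tested, 0 of the 20 genes passed by limma, against 10.0% of the table (5.34% higher, 4.66% lower). On the recovered reads edgeR called 9 higher and 5 lower, against 68.3% of the table (28.4% higher, 39.9% lower), and DESeq2 called 9 and 4, against 70.2% (32.7% and 37.5%). Of the 20 genes, 2 (HSPB7 and PPIC) were past the threshold in each of the 6 fits that left out a library. Of all 4101 genes of the table, 801 (19.5%) were.

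**Figure D1:**
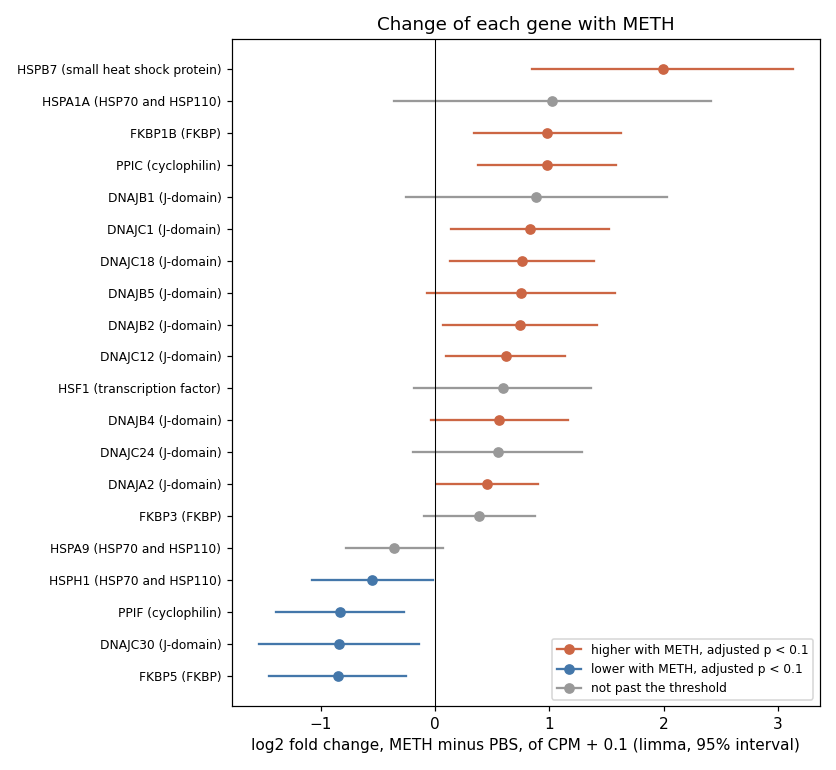
Log2 fold change of each of the 20 genes (METH minus PBS, of CPM + 0.1) with the 95% interval from limma, coloured by call. HSPB7 is at 1.99 and FKBP5 at -0.85, and the widest intervals among genes that did not pass are those of HSPA1A and DNAJB1.

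The transcription factor HSF1 (ENSG00000185122, chromosome 8, 144291591 to 144314722) was at 53.4, 139.9 and 97.9 CPM in PBS 10, PBS 11 and PBS 12, and at 168, 139.7 and 106 CPM in METH 1, METH 2 and METH 3. The groups overlapped, since PBS 11 lay above METH 2 and METH 3. The log2 fold change was 0.59 (95% interval -0.19 to 1.37, limma adjusted p = 0.144). HSPA1A (ENSG00000204389, chromosome 6, 31815464 to 31817946), the stress-inducible cytosolic HSP70, was at 119, 826 and 398 CPM with PBS and at 1101, 597 and 505 CPM with METH. Its log2 fold change was 1.03 (95% interval -0.37 to 2.42, limma adjusted p = 0.151). HSPA1A has a near-identical neighbour, HSPA1B, and how reads were shared between them is uncertain. DNAJB1 (ENSG00000132002, chromosome 19, 14514770 to 14529770), the J-domain partner that is induced with HSPA1A in heat shock, was at 72.2, 343 and 178 CPM with PBS and at 453, 249 and 245 CPM with METH. The log2 fold change of DNAJB1 was 0.88 (95% interval -0.26 to 2.03, limma adjusted p = 0.138).

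These 3 genes ranked the libraries in one order, from PBS 10 through PBS 12, METH 3, METH 2 and PBS 11 to METH 1. Of all genes of the table, 27 (0.658%) had that order, which was noticed after the values were seen. The spread was widest within the PBS-treatment group. Between the lowest and the highest PBS library HSPA1A differed 6.91-fold, DNAJB1 4.75-fold and HSF1 2.62-fold, while the median of the table was 1.69-fold. Between METH libraries the same genes differed 2.18-fold, 1.85-fold and 1.58-fold. A PBS range at least as wide as that of DNAJB1 was found in 0.725% of the 1932 genes that averaged 10 CPM or more. Leaving out a single PBS library changed these results. PBS 11 was the highest PBS library in all 3 genes, so leaving it out must raise the log2 fold change. Leaving out PBS 10, the lowest, must lower it. The share of all genes past the threshold without PBS 11 was not counted. Without PBS 11 all 3 genes passed as higher with METH (HSPA1A log2 fold change 1.67, limma adjusted p = 0.0398; DNAJB1 1.42, limma adjusted p = 0.0352; HSF1 0.91, limma adjusted p = 0.0488). Without PBS 10 the log2 fold changes were 0.27, 0.29 and 0.21 in the same order, with limma adjusted p-values of 0.548, 0.469 and 0.468.

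**Figure D2:**
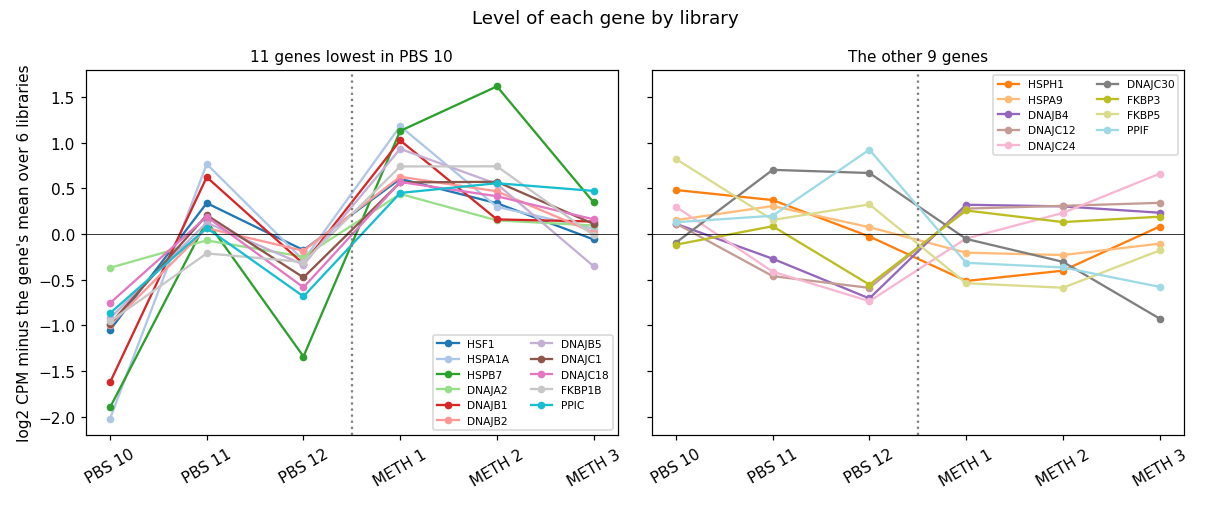
Level of each gene by library, as log2 CPM minus the gene's own mean over the 6 libraries, for the 11 genes that are lowest in PBS 10 (left) and the other 9 (right). HSPA1A, DNAJB1 and HSF1 rise from PBS 10 to PBS 11 and METH 1, while FKBP5 and HSPH1 are highest in PBS 10.

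Of the 20 genes, 11 were lowest in PBS 10, against 1163 (28.4%) of the 4101 genes of the table. In 7 of the 11, METH 1 was also the highest library, as it was in 796 of the 1163. A gene that falls with METH is less apt to be lowest in a PBS library. Log2 fold changes were positive in 15 of the 20 genes and in 2066 of the 4101. How far this direction accounts for the count of 11 was not tested. PBS 10 was the library with the highest mitochondrial sum. Without PBS 10, 6 genes were higher past the threshold in place of 10, and DNAJC1, DNAJC18, DNAJB5, DNAJB2 and DNAJA2 no longer passed while DNAJC24 did. The share of all genes past the threshold in that fit was not counted.

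Among the other genes of the HSP70 and HSP110 families, HSPH1 (ENSG00000120694, chromosome 13, 31134974 to 31162388), an HSP110 protein that exchanges nucleotide on HSP70, was at 61.6, 57.1 and 43.3 CPM with PBS and at 30.9, 33.4 and 46.7 CPM with METH. METH 3 lay above PBS 12, so the groups overlapped. HSPH1 fell by 0.55 on the log2 scale (limma SE 0.235, adjusted p = 0.0764). Without PBS 10, PBS 11, METH 1 or METH 2 it missed the threshold (limma adjusted p = 0.146, 0.119, 0.219 and 0.206), and in limma without a trend it was just outside (adjusted p = 0.101). HSPH1 and HSPA1A, both genes that HSF1 can raise, had log2 fold changes of opposite sign. HSPA9 (ENSG00000113013, chromosome 5, 138553756 to 138575724), the HSP70 of the mitochondrial matrix, was at 147, 164 and 139.8 CPM with PBS and at 115, 113 and 123 CPM with METH. Each METH library lay below each PBS library, which gave p = 0.1 in a 2-sided exact permutation test, the lowest p-value possible with 3 libraries against 3. Its log2 fold change was -0.36 (95% interval -0.78 to 0.07, limma adjusted p = 0.118). It passed when the libraries were scaled to the same median ratio (limma adjusted p = 0.0850) and by edgeR on the recovered reads (edgeR adjusted p = 0.0842). It did not pass by DESeq2 (adjusted p = 0.126), by limma without a trend (adjusted p = 0.149) or by limma with any library left out (adjusted p = 0.144 to 0.290).

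HSPB7 (ENSG00000173641, chromosome 1, 16014028 to 16019594), a small heat shock protein best known from heart muscle, had the largest log2 fold change of the 20 genes and was also the least abundant in CPM with PBS. It was at 0.948, 3.90 and 1.40 CPM in PBS 10, PBS 11 and PBS 12, and at 7.74, 10.9 and 4.50 CPM in METH 1, METH 2 and METH 3. The lowest METH library was above the highest PBS library, though by little. The mean was 2.08 ± 1.59 CPM in the PBS-treatment group and 7.70 ± 3.18 CPM in the METH-treatment group (SD over 3 libraries), a log2 fold change of 1.99 (limma SE 0.506, adjusted p = 0.0237). Without a library the log2 fold change lay between 1.58 and 2.55, and the highest limma adjusted p-value was 0.0837, without PBS 12.

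**Figure D3:**
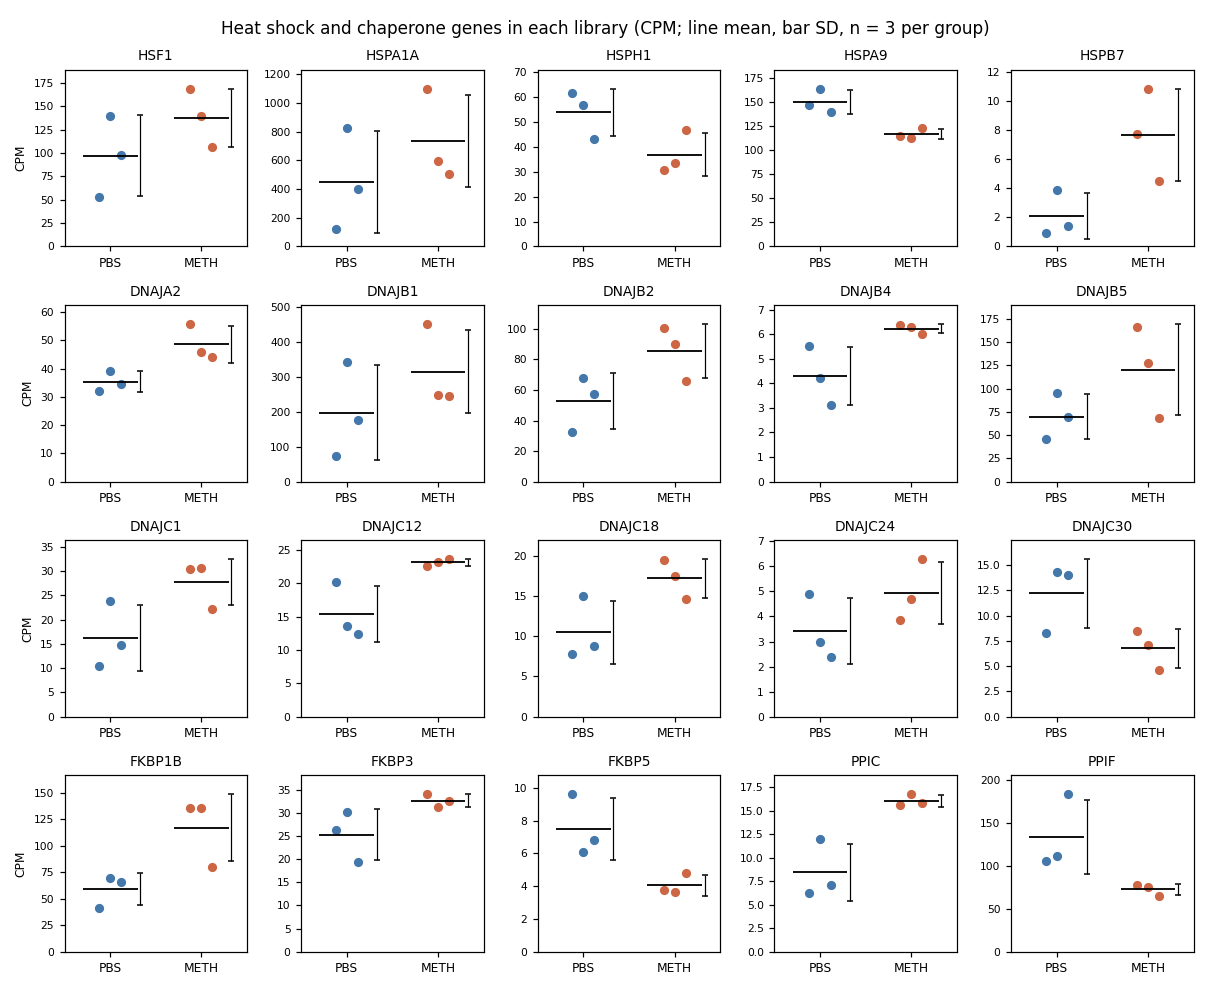
CPM of the 20 genes in each library, with axes that start at 0, the mean of each group as a line and the SD as a bar (n = 3 per group). PPIC, DNAJC12 and DNAJB4 have closely spaced METH libraries above all PBS libraries, while the groups overlap in HSPA1A, DNAJB1 and HSF1.

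J-domain proteins recruit HSP70 to its clients, and 9 of the 10 J-domain genes had a positive log2 fold change, as did 2066 of the 4101 genes of the table. Of the 10, 7 were higher past the threshold, 1 (DNAJC30) was lower, and DNAJB1 and DNAJC24 did not pass, so that 80.0% were called where 69.1% of the table was (33.3% higher, 35.8% lower). The groups did not overlap in 3 of them, DNAJA2, DNAJB4 and DNAJC12, against 64.0% of the table. DNAJC12 (ENSG00000108176, chromosome 10, 67796665 to 67838166) is a co-chaperone of the aromatic amino acid hydroxylases, which include the tyrosine hydroxylase of dopamine synthesis. It was at 20.2, 13.6 and 12.4 CPM with PBS and at 22.7, 23.1 and 23.7 CPM with METH. The METH libraries were within 1.04-fold of each other and above each PBS library, and PBS 10 was the nearest to them. The log2 fold change of DNAJC12 was 0.62 (limma SE 0.231, adjusted p = 0.0587), and it missed the threshold without PBS 12, METH 1 or METH 2 (limma adjusted p = 0.146, 0.134 and 0.156). The log2 fold changes in those fits were 0.48, 0.63 and 0.62, so it was smaller only without PBS 12.

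DNAJB2 (ENSG00000135924, chromosome 2, 219279267 to 219286900), a J-domain protein enriched in neurons that brings HSP70 clients to the proteasome, was at 32.6, 68.1 and 57.4 CPM with PBS and at 101, 90.1 and 65.9 CPM with METH. METH 3 lay below PBS 11. Its log2 fold change was 0.74 (limma SE 0.299, adjusted p = 0.0695), and it missed the threshold without PBS 10, PBS 12, METH 1 or METH 2 (limma adjusted p = 0.149, 0.115, 0.185 and 0.169). DNAJB5 (ENSG00000137094, chromosome 9, 34989641 to 34998900) was at 45.9, 94.9 and 69.0 CPM with PBS and at 166, 127 and 68.2 CPM with METH, with METH 3 below both PBS 11 and PBS 12. DNAJB5 had a log2 fold change of 0.75 (limma SE 0.365, adjusted p = 0.0995), the weakest of the calls, and its 95% interval held 0. With 1 or 0.01 added to the CPM, or with genes of at least 1 CPM only, it was just outside the threshold (limma adjusted p = 0.103, 0.102 and 0.102), as it was in limma without a trend (adjusted p = 0.123). Without PBS 10, PBS 12, METH 1 or METH 2, DNAJB5 was further from it (limma adjusted p = 0.250, 0.183, 0.292 and 0.219).

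DNAJA2 (ENSG00000069345, chromosome 16, 46955362 to 46973788), a constitutive cytosolic J-domain protein, was at 31.9, 39.3 and 34.7 CPM with PBS and at 55.9, 45.8 and 44.0 CPM with METH. These groups did not overlap, and the log2 fold change of 0.46 (limma SE 0.196, adjusted p = 0.0787) was the smallest among the 10 higher genes. DNAJA2 missed the threshold without PBS 10, PBS 12, METH 1 or METH 2 (limma adjusted p = 0.138, 0.144, 0.243 and 0.177), and also in limma without a trend (adjusted p = 0.107). DNAJB4 (ENSG00000162616, chromosome 1, 77979175 to 78017964), a cytosolic relative of DNAJB1, was at 5.53, 4.24 and 3.13 CPM with PBS and at 6.38, 6.31 and 6.01 CPM with METH. The METH libraries again lay close together above PBS. DNAJB4 had a log2 fold change of 0.56 (95% interval -0.04 to 1.16, limma adjusted p = 0.0956). It did not pass when the libraries were scaled to the same median ratio (limma adjusted p = 0.111), by edgeR (adjusted p = 0.166) or by DESeq2 (adjusted p = 0.107), and of the 6 fits without a library it passed in that without PBS 10 only (limma adjusted p = 0.0492; without PBS 11, PBS 12, METH 1, METH 2 and METH 3, 0.122, 0.231, 0.204, 0.212 and 0.142). DNAJB4 shares its strand with the overlapping gene GIPC2.

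The J-domain proteins of the endoplasmic reticulum membrane were DNAJC1 and DNAJC18. DNAJC1 (ENSG00000136770, chromosome 10, 21756537 to 22003769) was at 10.4, 23.7 and 14.8 CPM with PBS and at 30.4, 30.5 and 22.2 CPM with METH. DNAJC18 (ENSG00000170464, chromosome 5, 139408588 to 139444491) was at 7.76, 15.0 and 8.75 CPM with PBS and at 19.5, 17.5 and 14.7 CPM with METH. In both, METH 3 lay just below PBS 11, and PBS 10 was the lowest library. The log2 fold changes were 0.83 for DNAJC1 (limma SE 0.306, adjusted p = 0.0572) and 0.76 for DNAJC18 (limma SE 0.279, adjusted p = 0.0570). Without PBS 10, PBS 12, METH 1 or METH 2, neither passed (limma adjusted p = 0.112, 0.131, 0.145 and 0.157 for DNAJC1, and 0.110, 0.141, 0.155 and 0.147 for DNAJC18).

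DNAJC30 (ENSG00000176410, chromosome 7, 73680969 to 73683453) is a mitochondrial J-domain protein linked to the upkeep of respiratory complex I. It was at 8.25, 14.3 and 14.0 CPM with PBS and at 8.49, 7.13 and 4.64 CPM with METH. METH 1 and PBS 10 were nearly level, so the groups overlapped. DNAJC30 fell by 0.84 on the log2 scale (limma SE 0.312, adjusted p = 0.0572), and passed in 2 of the 6 fits that left out a library, those without PBS 10 and without METH 1. Without PBS 11, PBS 12, METH 2 or METH 3 the limma adjusted p-value of DNAJC30 was 0.104, 0.147, 0.122 or 0.128. DNAJC24 (ENSG00000170946), a J-domain protein of diphthamide synthesis on elongation factor 2, was at 4.90, 2.99 and 2.39 CPM with PBS and at 3.85, 4.68 and 6.30 CPM with METH (log2 fold change 0.55, 95% interval -0.19 to 1.29, limma adjusted p = 0.150, or 0.0575 without PBS 10). The groups overlapped there as well, with PBS 10 above METH 1 and METH 2.

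Of the FKBP genes, FKBP5 fell, FKBP1B rose and FKBP3 did not pass. FKBP5 (ENSG00000096060, chromosome 6, 35573585 to 35728583) is an HSP90 co-chaperone that lowers the affinity of the glucocorticoid receptor for its hormone and is itself induced by that receptor. It was at 9.62, 6.06 and 6.82 CPM with PBS and at 3.75, 3.62 and 4.80 CPM with METH. All METH libraries were below all PBS libraries, with means of 7.50 ± 1.88 CPM and 4.06 ± 0.650 CPM (SD over 3 libraries). FKBP5 fell by 0.85 on the log2 scale (limma SE 0.266, adjusted p = 0.0385), and was not past the threshold without METH 1 or METH 2 (limma adjusted p = 0.111 and 0.128).

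FKBP1B (ENSG00000119782, chromosome 2, 24049701 to 24063681) binds ryanodine receptors, the calcium release channels of the endoplasmic reticulum. It was at 41.8, 70.0 and 65.6 CPM with PBS and at 135, 136 and 80.4 CPM with METH. METH 1 and METH 2 were level, and METH 3 was nearer to PBS but above it. The mean rose from 59.1 ± 15.2 CPM to 117 ± 31.9 CPM (SD over 3 libraries), a log2 fold change of 0.98 (limma SE 0.286, adjusted p = 0.0335). FKBP1B was not past the threshold without METH 1 or METH 2 (limma adjusted p = 0.105 and 0.115), and MFSD2B overlaps it on the same strand. FKBP3 (ENSG00000100442), a nuclear FKBP, was at 26.3, 30.2 and 19.4 CPM with PBS and at 34.1, 31.2 and 32.5 CPM with METH. The groups of FKBP3 did not overlap, with a log2 fold change of 0.39 (95% interval -0.10 to 0.88, limma adjusted p = 0.133, or 0.0714 without PBS 11).

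Of the cyclophilins, PPIF fell and PPIC rose. PPIF (ENSG00000108179, chromosome 10, 79347469 to 79355337), cyclophilin D of the mitochondrial matrix, is a regulator of the permeability transition pore, whose opening can lead to cell death. PPIF was at 106, 111 and 183 CPM with PBS and at 77.6, 74.9 and 64.6 CPM with METH. The METH libraries were close together and below each PBS library, and PBS 12 stood above the other PBS libraries. The mean fell from 133 ± 43.3 CPM to 72.4 ± 6.84 CPM (SD over 3 libraries), a log2 fold change of -0.84 (limma SE 0.249, adjusted p = 0.0346). Without PBS 12 the log2 fold change was -0.58 and still past the threshold (limma adjusted p = 0.0871). Without METH 2 it was just outside (limma adjusted p = 0.101).

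PPIC (ENSG00000168938, chromosome 5, 123023250 to 123036741), cyclophilin C of the secretory pathway, was at 6.25, 11.9 and 7.10 CPM with PBS and at 15.6, 16.8 and 15.8 CPM with METH. The METH libraries were within 1.08-fold of each other and above all PBS libraries. The mean was 8.43 ± 3.07 CPM in the PBS-treatment group and 16.1 ± 0.630 CPM in the METH-treatment group (SD over 3 libraries). The log2 fold change was 0.98 (limma SE 0.269, adjusted p = 0.0289), and with each library left out it ranged from 0.79 to 1.26. PPIC lies opposite SNX24 on the other strand.

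Set by place, the 3 mitochondrial genes HSPA9, DNAJC30 and PPIF all had negative log2 fold changes, 2 of them past the threshold. The 3 genes of the endoplasmic reticulum, DNAJC1, DNAJC18 and PPIC, were all higher past the threshold, but the 4 genes of this compartment that were left out by name had negative log2 fold changes (HSPA5 -0.90, PDIA4 -0.67, DNAJC3 -0.55 and HSP90B1 -0.51), of which that of DNAJC3 did not pass. Of the 12 cytosolic genes, 7 were higher and 2 lower, 75.0% called in all, which is near the 69.1% of the table (33.3% higher, 35.8% lower). These groups are small, and no test between them was made. On the opposite strand, TECR overlaps DNAJB1, DGAT1 overlaps HSF1, BUD23 overlaps DNAJC30 and PRPF39 overlaps FKBP3, and whether reads were counted by strand is not stated.

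**Figure D4:**
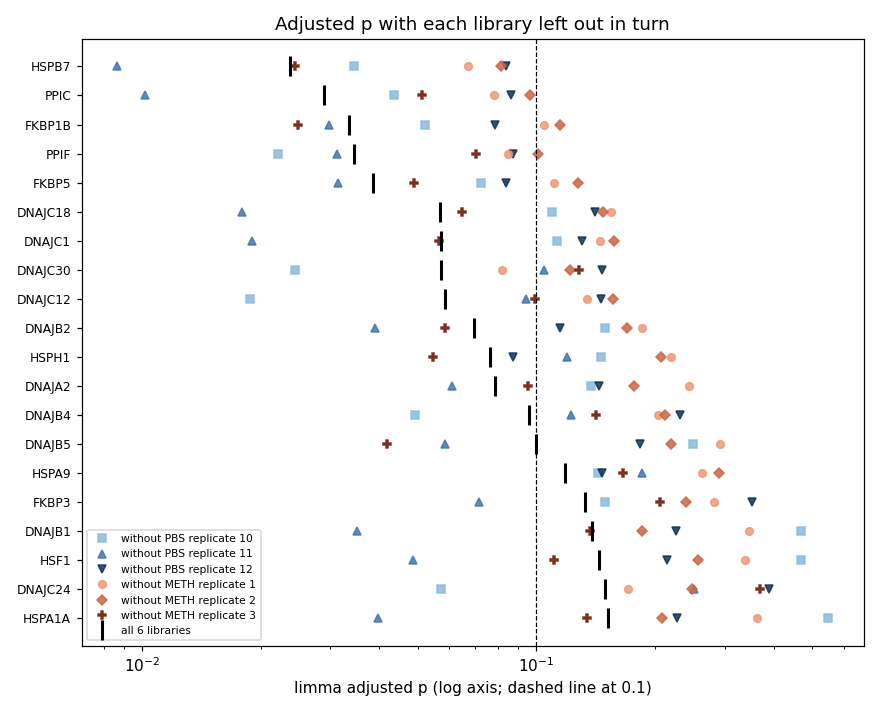
Limma adjusted p-value of each of the 20 genes with all 6 libraries (black bar) and with each library left out in turn, on a log axis with the threshold of 0.1 dashed. HSPB7 and PPIC keep all symbols left of the line, and HSPA1A, DNAJB1 and HSF1 cross it only without PBS 11.

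Levels of different genes were compared per kilobase of annotated exon. On that scale HSPA1A was the most abundant of the 20 genes, with a mean of 180.3 CPM per kilobase with PBS and 296 with METH. DNAJB1 followed at 53.8 and 86.0 CPM per kilobase. The order of DNAJB1 and PPIF with PBS (53.8 against 49.8 CPM per kilobase) was within the spread of DNAJB1, while with METH PPIF was at 27.1 CPM per kilobase, below FKBP1B at 69.9. The lowest level with PBS was that of DNAJC24, at 0.452 CPM per kilobase (0.651 with METH), and the lowest with METH was that of FKBP5, at 0.382 CPM per kilobase (0.706 with PBS).

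Related genes were taken from lists of general knowledge, and their counts stand beside 33.3% of all genes of the table called higher and 35.8% called lower. A list of HSF1 itself and genes that it can raise held 39 genes. Of these, 5 were in the table, HSF1, HSPA1A, DNAJB1, HSPH1 and DEDD2. Past the threshold, 1 was higher (DEDD2) and 1 lower (HSPH1). DEDD2, a death-effector-domain protein, was at 19.1, 68.2 and 48.1 CPM with PBS and at 122, 79.7 and 58.1 CPM with METH. It too was lowest in PBS 10 and highest in METH 1, and METH 3 lay below PBS 11 (log2 fold change 1.06, limma SE 0.449, adjusted p = 0.0763). DEDD2 missed the threshold without PBS 10, PBS 12, METH 1 or METH 2 (limma adjusted p = 0.173, 0.131, 0.204 and 0.150).

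Of the chaperones and helpers of the endoplasmic reticulum that are not among the 20 genes, 11 were in the table. With METH 6 were lower past the threshold and 1 (ERP44) was higher, with a median log2 fold change of -0.55 where the 20 genes had 0.60. The 7 called of 11 stand beside 69.1% of the table called (33.3% higher, 35.8% lower). The choice of genes bears on both medians, since HSPA5, HSP90B1, PDIA4 and DNAJC3, all with negative log2 fold changes, were left out of the 20 by name and stand in this list. HSPA5, the HSP70 of that compartment, was at 158, 349 and 252 CPM with PBS and at 155, 137 and 99.6 CPM with METH (log2 fold change -0.90, limma SE 0.313, adjusted p = 0.0493). PBS 10 and METH 1 were nearly level. Without PBS 12, METH 2 or METH 3, HSPA5 missed the threshold (limma adjusted p = 0.120, 0.116 and 0.104). CRELD2 (log2 fold change -1.03, limma adjusted p = 0.0810) and MANF (-0.75, limma adjusted p = 0.0961) had overlapping groups, and each passed in 1 of the 6 fits that left out a library, that without PBS 10 (limma adjusted p = 0.00630 and 0.0293).

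Co-chaperones with other names had 6 genes in the table, 3 higher and 2 lower past the threshold, beside 69.1% of the table called (33.3% higher, 35.8% lower). HSBP1, a small protein that binds HSF1 and dampens its activity, was at 105, 137 and 121 CPM with PBS and at 201, 180.4 and 152 CPM with METH (log2 fold change 0.55, limma SE 0.212, adjusted p = 0.0620). The METH libraries of HSBP1 lay above those of PBS, and it missed the threshold without PBS 10, PBS 12, METH 1 or METH 2 (limma adjusted p = 0.109, 0.120, 0.190 and 0.174). CDC37L1, an HSP90 co-chaperone, was higher (log2 fold change 0.68, limma adjusted p = 0.0615) and BBS10, a chaperonin-like protein, was lower (log2 fold change -0.76, limma adjusted p = 0.0797), both without overlap between the groups. CDC37L1 passed without PBS 10 or PBS 11, and BBS10 without PBS 11, PBS 12 or METH 3, but neither without METH 1 (limma adjusted p = 0.163 and 0.180) or METH 2 (0.127 and 0.215), CDC37L1 not without PBS 12 (0.148) or METH 3 (0.104), and BBS10 not without PBS 10 (0.205).

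Genes that glucocorticoids raise in many cells, a list that holds FKBP5, had 10 genes in the table. Past the threshold, 4 were higher and 5 lower, beside 69.1% of the table called (33.3% higher, 35.8% lower). SGK1 fell with FKBP5, by 1.14 on the log2 scale (limma SE 0.332, adjusted p = 0.0334), while DUSP1 rose by 2.41 (limma SE 0.458, adjusted p = 0.0108) and CEBPD by 4.06 (limma SE 0.631, adjusted p = 0.00679). CEBPD was low with PBS, at 0.117, 1.255 and 0.805 CPM in PBS 10, PBS 11 and PBS 12, with 13 reads in the lowest library. With METH it was at 14.0, 13.6 and 6.31 CPM. Its log2 fold change was 3.28 without PBS 10, and at such levels its size depends in part on the 0.1 added. SGK1, DUSP1 and CEBPD passed in each of the 6 fits that left out a library. CEBPD and DUSP1 were the 2 of these 10 that passed as if 20000 genes had been tested. Of the collagen-modifying enzymes, which include P4H genes and cyclophilin partners, 3 were in the table and 1 passed, P3H1 (log2 fold change 0.68, limma SE 0.218, adjusted p = 0.0413), which missed the threshold without METH 1 or METH 2 (limma adjusted p = 0.131 and 0.150).

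**Figure D5:**
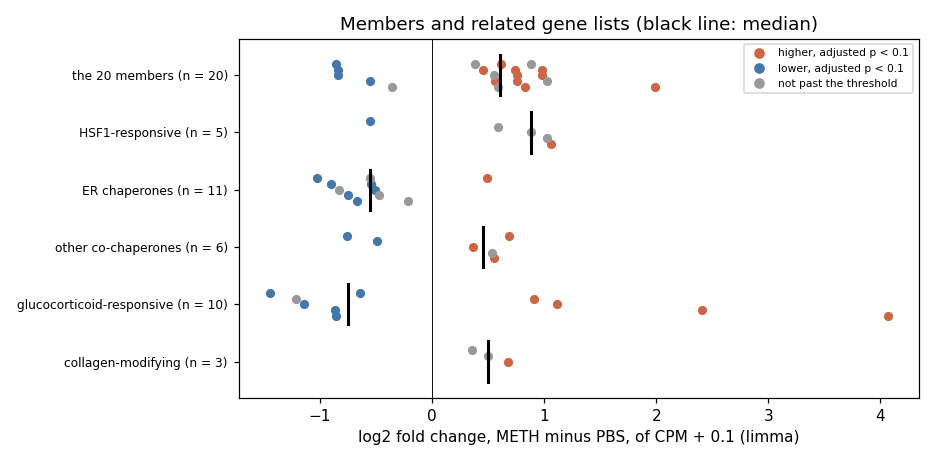
Limma log2 fold changes (METH minus PBS, of CPM + 0.1) of the 20 genes and of the genes of each related list that are in the table, coloured by call, with the median as a black line. The median is 0.60 for the 20 genes and -0.55 for the endoplasmic reticulum list, and 4 of the 5 genes of the HSF1 list are also among the 20.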

How the data were processed

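The deposited table holds 4101 genes with values for 6 libraries, the authors' group means, and fold change and p-value columns from a DESeq2 comparison by the authors, which were not used. All of its rows have an authors' p-value under 0.1. The authors headed the columns FPKM, but 100% of the values in each column were whole multiples of 1 step (within 0.1 of a read), so the deposited values were taken as CPM and reads were recovered. In PBS 10 the smallest value is 2 such steps. The aligner, counting tool, strandedness and genome build are not given in the sources used here. The design was planned for normalized values. Python 3.11.15, R 4.3.3 and limma 3.58.1 (lmFit, eBayes with a trend) were used on log2(CPM + 0.1). Alternatives were other added values, a filter of 1 CPM, no trend, median-ratio scaling, a threshold of 0.05, adjustment as for 20000 genes, edgeR 4.0.16 (quasi-likelihood) and DESeq2 1.42.0 on recovered reads, and each library left out. The fits were tested on simulated data. Gene positions and exonic lengths came from GENCODE release 29 (GRCh38). It is not stated that libraries came from separate cultures beyond the triplicate, so p-values measure the spread between these libraries.

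All 20 genes may be named. By rule, library values were given for up to 16 called genes that averaged 1 CPM or more in either group, and for each class. The values of HSPA1A, DNAJB1, HSF1, HSPA9, DNAJC24 and FKBP3 were added, and of each list at most 3 called genes averaging 1 CPM or more in either group were named by size of change, apart from ERP44, the only one of its list that rose. The genes and lists were chosen with earlier results of these data known. Some items are not reported here.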

Additional observations from a re-analysis of the deposited data

How the results depend on the processing

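No paired analysis was possible because the PBS columns are numbered 10 to 12 and share no number with the METH columns. No gene of the 20 changed sign under any alternative. A gene could miss the threshold with a library left out although its log2 fold change was no smaller. Such were DNAJC12 without METH 1 (0.63 against 0.62) and DNAJC30 without METH 2 (-0.90 against -0.84). The calls, 10 higher and 4 lower, became 3 and 2 at an adjusted p under 0.05 and 0 and 0 by limma when adjusted as for 20000 genes. With each library left out in turn they ranged from 2 to 13 higher and from 0 to 3 lower. How many of all genes of the table passed in each of these fits was not counted. Fewer libraries can lower such counts for any set of genes, and whether the fall is particular to the 20 genes was not tested. The lowest counts came without METH 1 (2 higher, 2 lower) and without METH 2 (2 and 0), and without PBS 12 there were 3 higher, without PBS 10 6, and without PBS 11 2 lower. edgeR gave 9 and 5, DESeq2 9 and 4, and limma without a trend 8 and 3, for which last the share of the table was not counted. The related genes outside the 20, 10 higher and 12 lower, became 5 and 4 at 0.05 and 2 and 0 as for 20000 genes, and with a library left out ranged from 2 to 12 higher and from 2 to 12 lower. The lowest of these also came without METH 1 or METH 2. Each of the 20 genes had at least 105 reads in every library, and the effect of depth was not tested.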
